A study of Mus musculus with 12 samples.

Results

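The genes described here are 10 mouse genes of lipid handling that work with the liver X receptors (LXRs) and the peroxisome proliferator-activated receptors (PPARs). They were taken by name from the deposited count table: the receptor genes Nr1h2, Nr1h3, Ppard and Pparg, and the lipid genes Abca1, Abcg1, Mylip, Plin2, Cd36 and Angptl4. All 10 were found among the 21834 genes of the table, and each was a protein-coding gene that overlapped no other gene listed there. Expression passed the filter for testing, a level of 0.5 CPM (counts scaled to a common library size) reached by 3 or more libraries, for 9 of the 10, and Angptl4 did not pass it. In the mm39 coordinates of the table, the LXR genes Nr1h2 and Nr1h3 lie at chr7:44199040-44203375 and chr2:91014406-91033179, and the PPAR genes Ppard and Pparg at chr17:28451674-28520448 and chr6:115337912-115467360. The LXR targets Abca1, Abcg1 and Mylip lie at chr4:53030787-53159895, chr17:31276649-31336962 and chr13:45543218-45565498. Plin2, Cd36 and Angptl4 lie at chr4:86566623-86588297, chr5:17986688-18093799 and chr17:33992724-34000804.

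LXRs and PPARs are nuclear receptors that bind DNA as partners of retinoid X receptors, and they are switched by lipids. LXRs sense oxysterols and turn on genes that carry cholesterol out of macrophages and microglia, among them the transporters Abca1 and Abcg1, and they also turn on Mylip, which encodes a ubiquitin ligase. PPARs sense fatty acids and turn on genes for their uptake, storage and oxidation, and Cd36, Plin2 and Angptl4 are well-known PPAR targets. Microglia use both systems to handle the lipid of engulfed debris.

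RNA was sequenced from BV2 cells, an immortalized mouse microglial line, to ask how Annexin A2 (Anxa2) affects gene expression after a model of ischemia and reperfusion. Each of the 4 groups had 3 libraries. In the shCtrl line the cells carried a control shRNA, and in the shAnxa2 line an shRNA against Anxa2. Both hairpins were delivered by lentivirus from the pLKO.1 vector, and both lines were selected with puromycin. Cells of the CTRL groups were untreated, and cells of the OGDR groups went through OGD/R, a loss of oxygen and glucose followed by reoxygenation. As labelled, this was 4 h at 1% oxygen without glucose and then 12 h in normal medium, while the study's methods give a longer reoxygenation for BV2 cells. The knockdown rested on 1 hairpin in 1 stable line, and the sources used here do not say whether that line is a clone. Effects of the knockdown, the hairpin and the line therefore cannot be told apart. The study described the 3 libraries of a group as biological replicates.

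Libraries held 19521877 to 27288843 counts, with a median of 24531756. Anxa2 followed the hairpin given in the sample titles, while another label field gave the hairpin differently. It had 172 ± 6.36 CPM (SD, n = 3) in shCtrl-CTRL, 279 ± 24.3 in shCtrl-OGDR, 40.4 ± 4.86 in shAnxa2-CTRL and 19.6 ± 1.26 in shAnxa2-OGDR. All 10 microglial markers were expressed, with a summed level of 1504 to 1896 CPM per library. Summed markers of astrocytes, neurons, fibroblasts and adipocytes reached at most 1.33 CPM, and the oligodendrocyte list reached 29.3 to 36.8 CPM with its defining gene Mog at 0 in every library. In bulk RNA, fewer expressing cells and less RNA per cell cannot be told apart.

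Most of the hypoxia targets, a list of genes that cells induce when oxygen is low, changed in opposite directions in the lines as labelled. By the labels, OGDR cells had been back in normal medium for 12 h. In shCtrl cells, 10 of the 14 hypoxia targets tested were higher after OGD/R, beside 32.4% of all genes, and 2 were lower, beside 31.0%, with a median log2 fold change of 0.71. In shAnxa2 cells, 1 was higher and 10 were lower in the libraries labelled OGDR than in those labelled CTRL, beside 28.2% and 26.8% of all genes, with a median of -0.60. The summed level of the 14 targets was 4138.9 to 4464.6 CPM in shCtrl-CTRL, 5360.4 to 5936.7 CPM in shCtrl-OGDR, 5552.8 to 5824.5 CPM in shAnxa2-CTRL and 3930.8 to 3975.2 CPM in shAnxa2-OGDR. Most of this sum came from Ldha and Pgk1, with mean levels of 2212.8 and 1507.3 CPM over all libraries. The hypoxia gene Ndrg1 had 9.27, 11.7 and 11.5 CPM in shCtrl-CTRL, 63.6, 78.7 and 74.3 CPM in shCtrl-OGDR, 49.0, 49.7 and 47.7 CPM in shAnxa2-CTRL, and 6.99, 8.54 and 9.65 CPM in shAnxa2-OGDR. Thus Ndrg1 was low in shCtrl-CTRL and shAnxa2-OGDR and high in the other groups. Ndrg1 was chosen after its values were seen. Over all tested genes, the shAnxa2-OGDR libraries also lay nearest to shCtrl-CTRL, at a mean root-mean-square log2 distance of 0.416, and shAnxa2-CTRL lay nearest to shCtrl-OGDR, at 0.453. The mean distance between libraries of the same group was 0.252 to 0.280 over the 4 groups. What underlies this order, and its part in the results below, was not tested. The groups are named below as labelled. The comparison of the lines is also given averaged over both treatments, where the CTRL and OGDR groups of a line count equally and their order has no effect.

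The sequences before the transcription starts of 3 lipid genes are shown because they hold letters that resemble LXR or PPAR sites. RefSeq promoters on GRCm38.p6 matched 8 of the 10 genes, with 11 starts. Abcg1 and Angptl4 were not matched. The core letters of both sites are AGGTCA. The LXR site searched, DR4, was this core written out again after 4 bases of any kind, with at most 3 mismatches, and the PPAR site, DR1, was the core written out again after 1 base of any kind, with at most 2 mismatches. Both strands were searched, in windows of 250 bases before and 50 bases after each start, and the number of mismatches allowed for DR4 was set after the Abca1 promoter had been looked at. Each sequence below is the 250 bases before the start, on the strand of the gene, and capitals mark the match, which lies on the opposite strand in each. The Abca1 sequence is chr4:53159896-53160145 (minus strand) with a DR4 match, the Plin2 sequence is chr4:86670060-86670309 (minus strand) with a DR1 match, and the Cd36 sequence is chr5:17835897-17836146 (minus strand) with a DR1 match.
Abca1: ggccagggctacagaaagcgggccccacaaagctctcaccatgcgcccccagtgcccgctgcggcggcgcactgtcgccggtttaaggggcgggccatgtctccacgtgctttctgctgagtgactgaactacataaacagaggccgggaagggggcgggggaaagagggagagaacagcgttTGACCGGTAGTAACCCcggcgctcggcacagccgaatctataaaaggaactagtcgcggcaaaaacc
Plin2: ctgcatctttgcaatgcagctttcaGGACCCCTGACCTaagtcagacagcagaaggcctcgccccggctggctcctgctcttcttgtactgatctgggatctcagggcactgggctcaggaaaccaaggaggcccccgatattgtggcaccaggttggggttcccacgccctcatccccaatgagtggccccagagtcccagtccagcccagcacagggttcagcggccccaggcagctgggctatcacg
Cd36: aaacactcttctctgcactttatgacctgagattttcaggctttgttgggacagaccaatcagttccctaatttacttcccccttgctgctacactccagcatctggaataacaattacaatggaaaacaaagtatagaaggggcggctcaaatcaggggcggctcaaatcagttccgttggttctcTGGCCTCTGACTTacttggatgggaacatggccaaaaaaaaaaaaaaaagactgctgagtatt

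The DR4 match of Abca1 began 67 bases before the start and carried 3 mismatches. A DR4 match of this quality was also present at 1 Pparg start and in 21.9% of the 32851 promoter windows of all genes, so it is common at these settings. The DR1 matches of Plin2 and Cd36 began 225 and 63 bases before their starts, each with 2 mismatches, and 3.86% of all windows held such a match. The hypoxia response core ACGTG was present in the windows of Abca1, Plin2 and Ppard, and in 19.6% of all windows. These matches describe letters, and binding was not measured.

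Per transcript length, Plin2 had the highest level of the 10 genes in every group and Abcg1 the second highest. In shCtrl-CTRL cells, Plin2 had 44.0 ± 0.261 CPM per kb of exon (SD, n = 3), Abcg1 26.7 ± 0.634 and Cd36 26.5 ± 1.35, and the values of Abcg1 and Cd36 differed by less than their spread. Nr1h2 followed at 16.4 ± 0.507, Nr1h3 at 9.88 ± 0.95 and Abca1 at 9.10 ± 0.934 CPM per kb, and the latter pair also lay within the spread. Mylip had 5.28 ± 0.0783 and Ppard 5.07 ± 0.00917 CPM per kb. Pparg had 0.328 ± 0.0765 CPM per kb. In both shAnxa2 groups, Cd36 ranked below Nr1h3 and Abca1, with 4.46 ± 0.727 CPM per kb in shAnxa2-CTRL and 5.04 ± 0.872 in shAnxa2-OGDR.

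**Figure D1:**
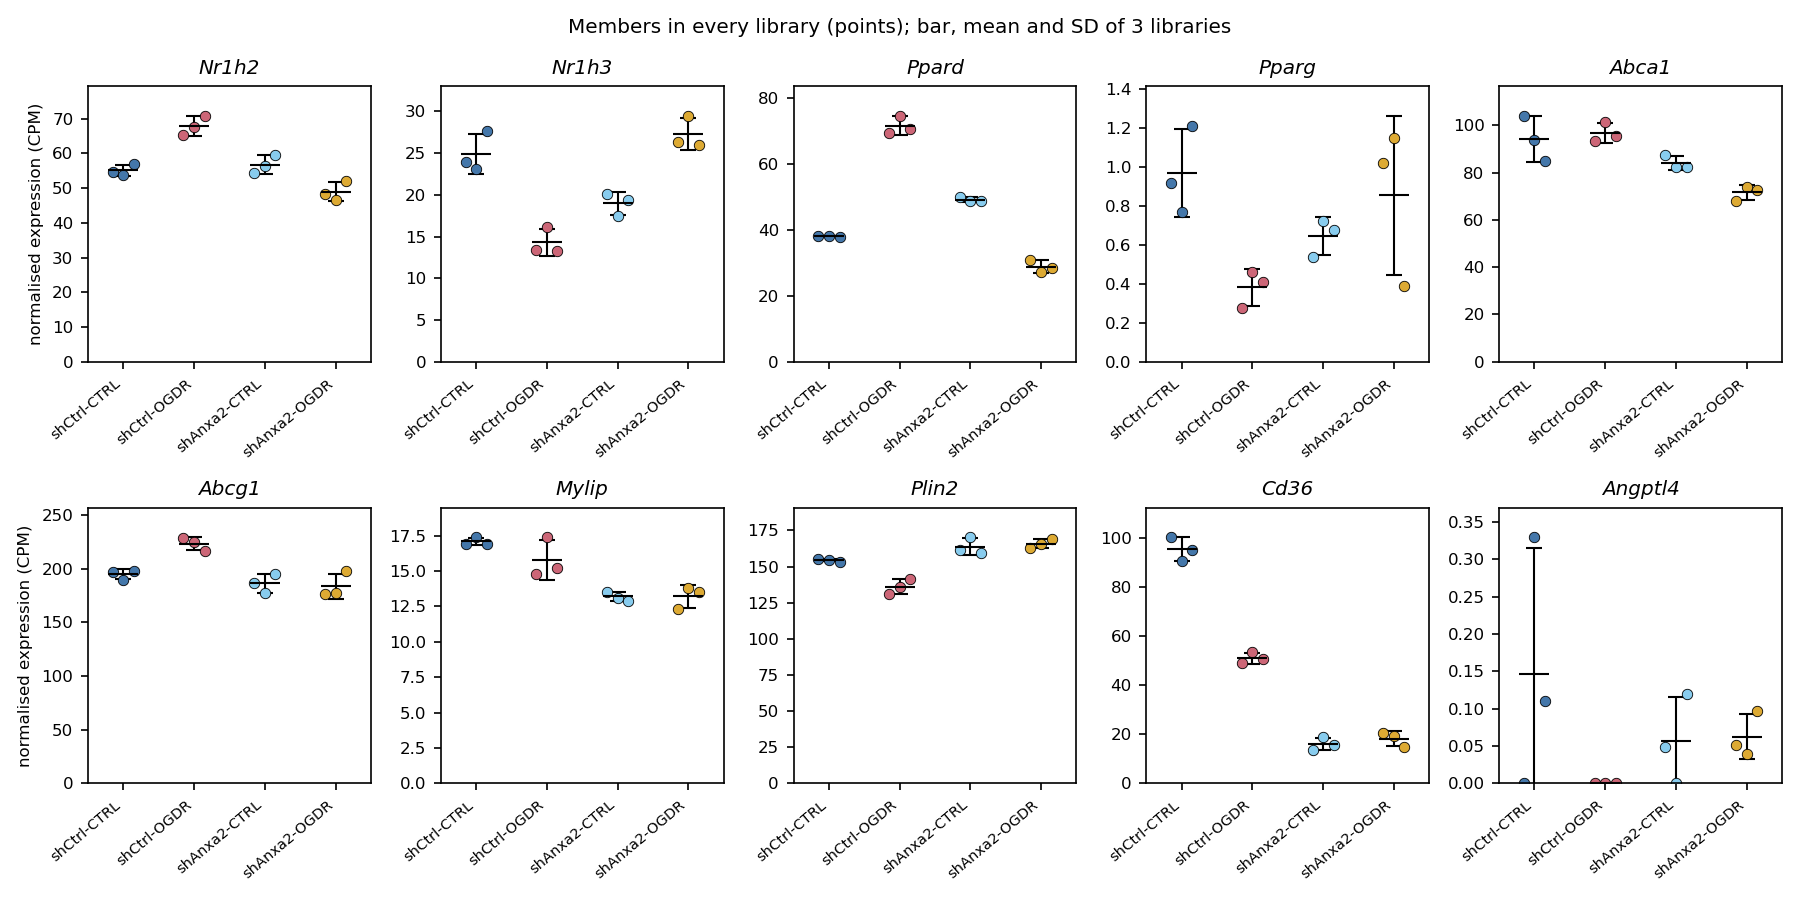
Normalised expression in CPM (y axis, from 0) of the 10 genes in the 4 groups (x axis). Points are single libraries, and bars give the mean and SD of 3 libraries. Ppard lies highest in shCtrl-OGDR and lowest in shAnxa2-OGDR, Nr1h3 lies lowest in shCtrl-OGDR, and Cd36 lies under 21 CPM in all 6 shAnxa2 libraries.

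The LXR genes Nr1h2 and Nr1h3 moved in opposite directions after OGD/R, in each line as labelled. Nr1h2, which encodes LXR-beta, had 54.6, 53.7 and 56.9 CPM in shCtrl-CTRL and 65.4, 67.5 and 70.9 CPM in shCtrl-OGDR. In shAnxa2 the values were 54.3, 56.3 and 59.6 CPM for CTRL and 48.4, 46.7 and 52.0 CPM for OGDR. Nr1h2 was thus highest in every shCtrl-OGDR library and lowest in every shAnxa2-OGDR library, and the untreated groups overlapped. The test throughout was edgeR's quasi-likelihood test over 11626 genes with Benjamini-Hochberg adjustment, whose result is called the edgeR adjusted p. OGD/R raised Nr1h2 in shCtrl by a log2 fold change of 0.30 (SE 0.057, edgeR adjusted p = 6.22e-05). In shAnxa2 the log2 fold change was -0.21 (SE 0.0589, edgeR adjusted p = 0.00364). Between the lines it was 0.04 without treatment (SE 0.0577, edgeR adjusted p = 0.528) and -0.47 after OGD/R (SE 0.0581, edgeR adjusted p = 1.26e-07).

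Nr1h3, which encodes LXR-alpha, had 23.9, 23.1 and 27.6 CPM in shCtrl-CTRL and 13.4, 16.2 and 13.3 CPM in shCtrl-OGDR. The shAnxa2-CTRL libraries had 20.1, 17.5 and 19.4 CPM and those of shAnxa2-OGDR 26.3, 29.5 and 26.0 CPM. Nr1h3 was lowest in every shCtrl-OGDR library, intermediate in shAnxa2-CTRL, and high in shCtrl-CTRL and shAnxa2-OGDR, which overlapped. In shCtrl cells, Nr1h3 was 1.73-fold lower after OGD/R, a log2 fold change of -0.79 (SE 0.093, edgeR adjusted p = 7.26e-08). In the shAnxa2 line it was 1.44-fold higher in the libraries labelled OGDR (log2 0.52, SE 0.0915, edgeR adjusted p = 3.48e-05). After OGD/R it was 1.91-fold higher in shAnxa2 than in shCtrl (log2 0.93, SE 0.0937, edgeR adjusted p = 4.22e-09), and without treatment it was 1.31-fold lower (log2 -0.39, SE 0.0909, edgeR adjusted p = 0.000773).

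The balance of the LXR isotypes was computed in each library as the Nr1h2 level per length divided by the Nr1h3 level per length. This ratio was 1.71, 1.75 and 1.55 in shCtrl-CTRL, 3.67, 3.13 and 3.99 in shCtrl-OGDR, 2.03, 2.41 and 2.30 in shAnxa2-CTRL, and 1.38, 1.18 and 1.5 in shAnxa2-OGDR. No library of a group overlapped another group. The mean was 1.67 ± 0.105 in shCtrl-CTRL and 3.6 ± 0.436 in shCtrl-OGDR (SD, n = 3), and the exact two-sided permutation test gave p = 0.1, the smallest that 3 against 3 libraries allow. The shAnxa2 means were 2.25 ± 0.20 for CTRL and 1.35 ± 0.158 for OGDR, again with an exact permutation p = 0.1. Nr1h2 was the more abundant isotype per length in all 12 libraries.

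**Figure D2:**
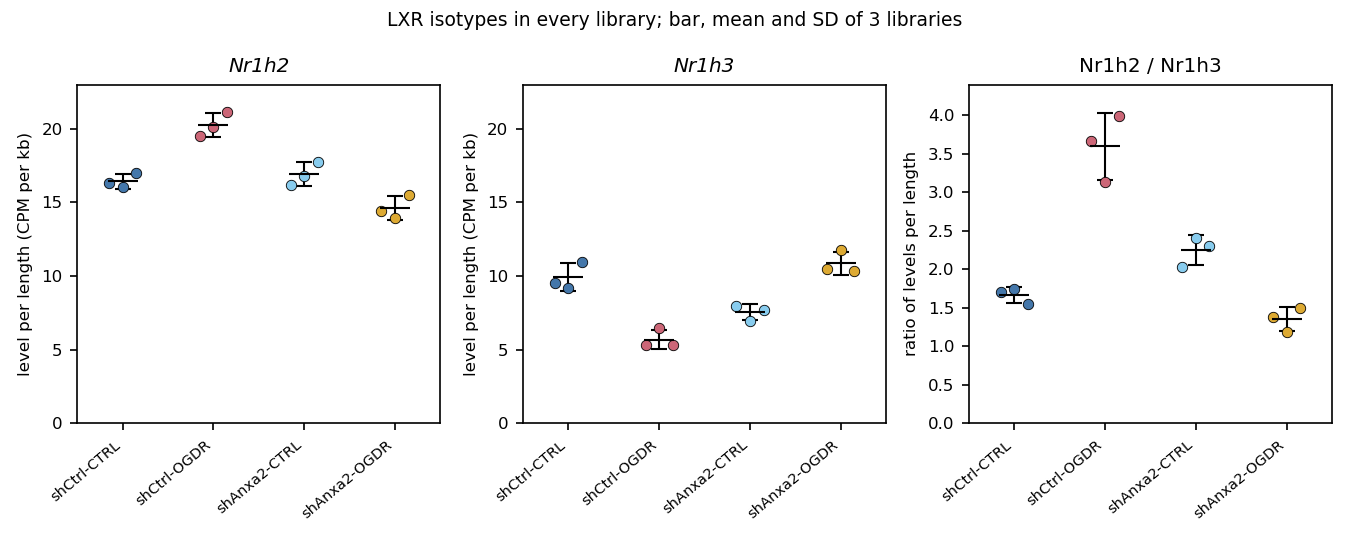
Level per length in CPM per kb of exon (y axis, from 0) of Nr1h2 and Nr1h3 in the 4 groups (x axis), and their ratio in the right panel. Points are single libraries, and bars give the mean and SD of 3 libraries. The ratio is highest in shCtrl-OGDR, at 3.6, and lowest in shAnxa2-OGDR, at 1.35.

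Ppard, which encodes PPAR-delta, a receptor expressed in most tissues that promotes fatty acid oxidation, changed in each of the 4 comparisons between groups. It had 38.2, 38.1 and 38.0 CPM in shCtrl-CTRL and 69.4, 74.7 and 70.5 CPM in shCtrl-OGDR. In shAnxa2 the values were 50.0, 48.8 and 48.9 CPM for CTRL and 30.9, 27.1 and 28.3 CPM for OGDR. The 4 groups lay apart, with shCtrl-OGDR highest and shAnxa2-OGDR lowest. OGD/R raised Ppard 1.88-fold in shCtrl (log2 0.91, SE 0.0575, edgeR adjusted p = 1.70e-12). In shAnxa2 it was 1.71-fold lower in the libraries labelled OGDR (log2 -0.78, SE 0.0612, edgeR adjusted p = 2.58e-10). Between the lines, Ppard was 1.29-fold higher in shAnxa2 without treatment (log2 0.37, SE 0.0588, edgeR adjusted p = 8.83e-06) and 2.49-fold lower in shAnxa2 after OGD/R (log2 -1.32, SE 0.06, edgeR adjusted p = 2.87e-15). The same order of the 4 groups, from shCtrl-OGDR through shAnxa2-CTRL and shCtrl-CTRL to shAnxa2-OGDR, was found for Nr1h2 and for 12.1% of all tested genes.

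Pparg, which encodes PPAR-gamma, the receptor that drives lipid storage in fat cells, was measured from few reads. Its raw counts were 22, 21 and 33 in shCtrl-CTRL, 7, 12 and 8 in shCtrl-OGDR, 11, 15 and 17 in shAnxa2-CTRL, and 20, 29 and 8 in shAnxa2-OGDR. The shCtrl-OGDR libraries lay below all shCtrl-CTRL libraries, while 1 shAnxa2-OGDR library was as low as shCtrl-OGDR. Pparg was 2.53-fold lower after OGD/R in shCtrl (log2 -1.34, SE 0.397, edgeR adjusted p = 0.00501). Its log2 fold change between the lines after OGD/R was 1.18 (SE 0.416, edgeR adjusted p = 0.0150), but the groups overlapped. That call was lost without replicate 1 of shCtrl-OGDR (log2 0.98, edgeR adjusted p = 0.0691), without replicate 1 of shAnxa2-OGDR (1.07, edgeR adjusted p = 0.0521) and without its replicate 2 (0.87, edgeR adjusted p = 0.117).

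The cholesterol exporters were lower in shAnxa2 than in shCtrl after OGD/R, by less than 1.5-fold. Abca1, which loads cholesterol and phospholipid onto apolipoproteins, had 104, 94.0 and 84.8 CPM in shCtrl-CTRL and 93.3, 101 and 95.5 CPM in shCtrl-OGDR. In shAnxa2 the values were 87.6, 82.6 and 82.3 CPM for CTRL and 68.2, 74.1 and 72.8 CPM for OGDR. The shCtrl groups overlapped, and shAnxa2-OGDR lay below every other library. After OGD/R, Abca1 was 1.35-fold lower in shAnxa2 (log2 -0.43, SE 0.062, edgeR adjusted p = 1.34e-06), and within shAnxa2 it was 1.17-fold lower in the libraries labelled OGDR (log2 -0.23, SE 0.0626, edgeR adjusted p = 0.00319). Untreated, the log2 fold change between the lines was -0.16 (SE 0.0612, edgeR adjusted p = 0.0246), with overlapping groups. That call was lost without replicate 1 of shCtrl-CTRL (-0.09, edgeR adjusted p = 0.217) and without replicate 2 or 3 of shAnxa2-CTRL (-0.15 for each, edgeR adjusted p = 0.0726 and 0.0741).

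Abcg1, which exports cholesterol to high-density lipoprotein, had 197, 189.5 and 198 CPM in shCtrl-CTRL and 229, 225 and 217 CPM in shCtrl-OGDR. In shAnxa2 the values were 187, 177 and 195 CPM for CTRL and 176, 177 and 197.5 CPM for OGDR. Every shCtrl-OGDR library was higher than all others, and the remaining groups overlapped. OGD/R raised Abcg1 1.15-fold in shCtrl (log2 0.20, SE 0.0512, edgeR adjusted p = 0.00165). In shAnxa2 the log2 fold change was -0.02 (SE 0.0517, edgeR adjusted p = 0.756). After OGD/R Abcg1 was 1.22-fold lower in shAnxa2 than in shCtrl (log2 -0.28, SE 0.0515, edgeR adjusted p = 3.45e-05).

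Mylip, an LXR target that encodes a ubiquitin ligase, was lower in the shAnxa2 line. It had 16.9, 17.4 and 16.9 CPM in shCtrl-CTRL, 14.8, 17.4 and 15.2 CPM in shCtrl-OGDR, 13.5, 13.1 and 12.9 CPM in shAnxa2-CTRL, and 12.3, 13.8 and 13.5 CPM in shAnxa2-OGDR. All 6 shAnxa2 libraries were below all 6 shCtrl libraries. Averaged over treatments, Mylip was 1.25-fold lower in shAnxa2 (log2 -0.32, SE 0.0624, edgeR adjusted p = 0.000158). The log2 fold change was -0.37 without treatment (SE 0.0876, edgeR adjusted p = 0.000809) and -0.26 after OGD/R (SE 0.0891, edgeR adjusted p = 0.0124). Between treatments its log2 fold change was -0.11 in shCtrl (edgeR adjusted p = 0.273) and 0.00 in shAnxa2 (edgeR adjusted p = 0.99). The call between the lines after OGD/R was lost without replicate 2 of shCtrl-OGDR (-0.18, edgeR adjusted p = 0.104) or replicate 1 of shAnxa2-OGDR (-0.21, edgeR adjusted p = 0.0614).

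Cd36, the scavenger receptor that takes up fatty acids and oxidized lipoprotein, showed the largest difference between the lines among the 9 genes tested. It had 100.2, 90.5 and 94.8 CPM in shCtrl-CTRL and 49.0, 53.3 and 50.4 CPM in shCtrl-OGDR. In shAnxa2 the values were 13.7, 18.9 and 15.5 CPM for CTRL and 20.5, 19.3 and 14.6 CPM for OGDR. Both shAnxa2 groups lay far below both shCtrl groups and overlapped each other, and shCtrl-OGDR lay below shCtrl-CTRL. Cd36 was 5.94-fold lower in untreated shAnxa2 cells (log2 -2.57, SE 0.0953, edgeR adjusted p = 1.68e-16) and 2.81-fold lower after OGD/R (log2 -1.49, SE 0.0962, edgeR adjusted p = 1.53e-12). OGD/R lowered Cd36 1.87-fold in shCtrl (log2 -0.90, SE 0.0841, edgeR adjusted p = 1.59e-09). In shAnxa2 the log2 fold change was 0.18 (SE 0.108, edgeR adjusted p = 0.166), and it became a call of 0.31 without replicate 2 of shAnxa2-CTRL (edgeR adjusted p = 0.0246) or replicate 3 of shAnxa2-OGDR (edgeR adjusted p = 0.0110). Msr1, another scavenger receptor for modified lipoprotein and no member of the gene group, was also lower in shAnxa2, with log2 fold changes of -2.13 without treatment (SE 0.15, edgeR adjusted p = 1.83e-11) and -1.10 after OGD/R (SE 0.148, edgeR adjusted p = 4.67e-07).

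Plin2, which coats lipid droplets, was the most abundant of the genes per length and differed by at most 1.22-fold between the groups compared. It had 155, 155 and 153 CPM in shCtrl-CTRL, 131, 136 and 142 CPM in shCtrl-OGDR, 161, 170.4 and 159 CPM in shAnxa2-CTRL, and 163, 166 and 169 CPM in shAnxa2-OGDR. All shAnxa2 libraries were above all shCtrl libraries, and shCtrl-OGDR was the lowest group. OGD/R lowered Plin2 1.14-fold in shCtrl (log2 -0.18, SE 0.0456, edgeR adjusted p = 0.00120), and after OGD/R it was 1.22-fold higher in shAnxa2 (log2 0.29, SE 0.0458, edgeR adjusted p = 6.15e-06). Without treatment the log2 fold change between the lines was 0.08 (SE 0.0455, edgeR adjusted p = 0.116).

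Angptl4, a secreted inhibitor of lipoprotein lipase, was close to absent from the reads. Its raw counts were 0, 9 and 3 in shCtrl-CTRL, 0, 0 and 0 in shCtrl-OGDR, 1, 0 and 3 in shAnxa2-CTRL, and 1, 1 and 2 in shAnxa2-OGDR. A count of 0 allows up to 3 counts per library, which is 0.115 to 0.154 CPM in the shCtrl-OGDR libraries and covers counting error only. The shCtrl groups overlapped at 0, and replicate 2 of shCtrl-CTRL held 9 of that group's reads. Angptl4 was tested only when the filter was dropped, over 16198 genes, and was then called lower after OGD/R in shCtrl (edgeR adjusted p = 0.0123) and in none of the other comparisons, where the edgeR adjusted p was 0.0617 or higher. No fold change is given at these counts.

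In shCtrl cells, the response to OGD/R raised Ppard, Nr1h2 and Abcg1 and lowered Pparg, Cd36, Nr1h3 and Plin2. Thus 3 of the 9 tested genes rose, where 32.4% of all genes did, and 4 fell, where 31.0% did, or 7 of 9 against 63.4% in either direction. With an added limit of 1.5-fold, Ppard rose, beside 11.8% of all genes, and Pparg, Cd36 and Nr1h3 fell, beside 8.27%, so that 20.1% of all genes passed in either direction. Abca1 did not pass the test, with a log2 fold change of 0.04 (SE 0.0606, edgeR adjusted p = 0.604), nor did Mylip. The median log2 fold change over the 9 genes was -0.11, and over all genes it was 0.005.

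In the shAnxa2 line, Nr1h3 was higher and Ppard, Abca1 and Nr1h2 were lower in the libraries labelled OGDR. The 1 gene called higher stands beside 28.2% of all genes and the 3 called lower beside 26.8%, or 4 of 9 against 55.0% in either direction. Past the 1.5-fold limit was 1 gene, Ppard, among those lower, beside 7.88% of all genes, and 0 genes among those higher, beside 4.17%, with 12.1% in either direction. The median over the 9 genes was 0.00. Ppard and Nr1h2 rose in shCtrl and fell in shAnxa2, and Nr1h3 did the reverse. Among all tested genes, 22.0% were called higher in shCtrl and lower in shAnxa2 and 22.4% the other way, so such opposite calls were common.

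**Figure D3:**
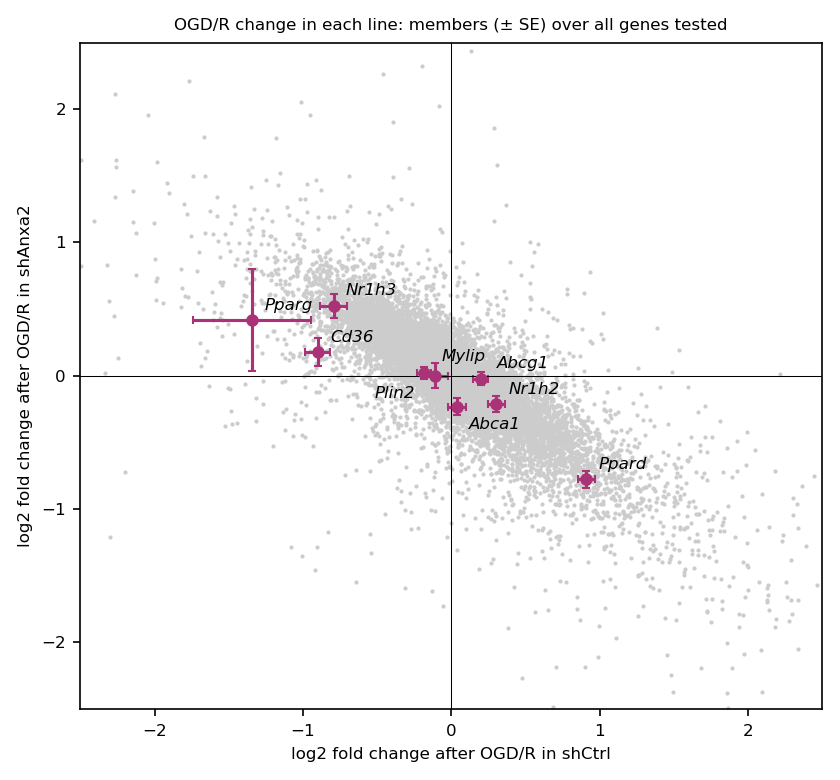
Log2 fold change after OGD/R in shCtrl (x axis) and in shAnxa2 (y axis), groups as labelled. Grey points are all tested genes, of which 60 lie outside the axes, and coloured points are the 9 genes with error bars of 1 SE. Ppard lies at 0.91 and -0.78, and Nr1h3 at -0.79 and 0.52.

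The knockdown was compared with the control at each treatment, and these comparisons share their libraries with those above. Without treatment, Ppard was higher in shAnxa2 and Cd36, Nr1h3, Mylip and Abca1 were lower. The 1 higher gene stands beside 29.5% of all genes and the 4 lower ones beside 29.7%, or 5 of 9 against 59.2%. Cd36 was the 1 gene lower past the 1.5-fold limit, beside 5.81% of all genes, and 0 were higher, beside 9.77%, with 15.6% in either direction. After OGD/R all 9 genes were called, 3 higher beside 33.8% of all genes and 6 lower beside 34.2%, with 67.9% in either direction. Pparg, Nr1h3 and Plin2 were higher in shAnxa2, and Cd36, Ppard, Nr1h2, Abca1, Abcg1 and Mylip were lower. With the 1.5-fold limit, Nr1h3 and Pparg were higher, beside 11.8% of all genes, and Cd36 and Ppard lower, beside 14.4%, with 26.3% in either direction, and the count of higher genes fell to 1 in each fit that lost the Pparg call.

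Averaged over treatments, with the CTRL and OGDR groups of each line counted equally, 2 of the 9 genes were higher in shAnxa2, beside 27.9% of all genes. Lower were 6, beside 25.1%, with 53.0% in either direction. The spread was still taken within the groups as labelled. This comparison was added after the hypoxia targets had been seen. Cd36 was 4.09-fold lower (log2 -2.03, SE 0.0677, edgeR adjusted p = 1.78e-17) and was the 1 gene lower past the 1.5-fold limit, beside 3.79% of all genes, while 0 were higher, beside 3.04%, with 6.84% in either direction. The log2 fold changes of the other genes called lower were -0.47 for Ppard, -0.32 for Mylip, -0.30 for Abca1, -0.21 for Nr1h2 and -0.17 for Abcg1. Nr1h3 was higher by 0.27 and Plin2 by 0.19. The 6 shAnxa2 libraries lay on one side of the 6 shCtrl libraries for Cd36, Mylip and Plin2, and overlapped them for the others of these 8 genes. How many of all tested genes separate the lines in this way was not counted. Pparg had a log2 fold change of 0.30 (SE 0.279, edgeR adjusted p = 0.379). For Ppard and Nr1h3 the average joins differences of opposite sign. Ppard had 0.37 untreated and -1.32 after OGD/R, and Nr1h3 had -0.39 and 0.93.

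The change after OGD/R differed between the lines for 8 of the 9 genes by the interaction term, 4 positive beside 34.9% of all genes and 4 negative beside 35.1%, with 70.0% in either direction, and the exception was Mylip (0.11, SE 0.125, edgeR adjusted p = 0.441). Past the 1.5-fold limit, with 41.8% of all genes in either direction, Ppard was negative at -1.69 (SE 0.084, edgeR adjusted p = 1.03e-14), beside 22.0%. Positive past it, beside 19.8%, were Nr1h3 at 1.32 (SE 0.131, edgeR adjusted p = 2.83e-09), Cd36 at 1.08 (SE 0.136, edgeR adjusted p = 1.66e-07) and Pparg at 1.76 (SE 0.551, edgeR adjusted p = 0.0067). The interaction uses the treatment labels of both lines.

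**Figure D4:**
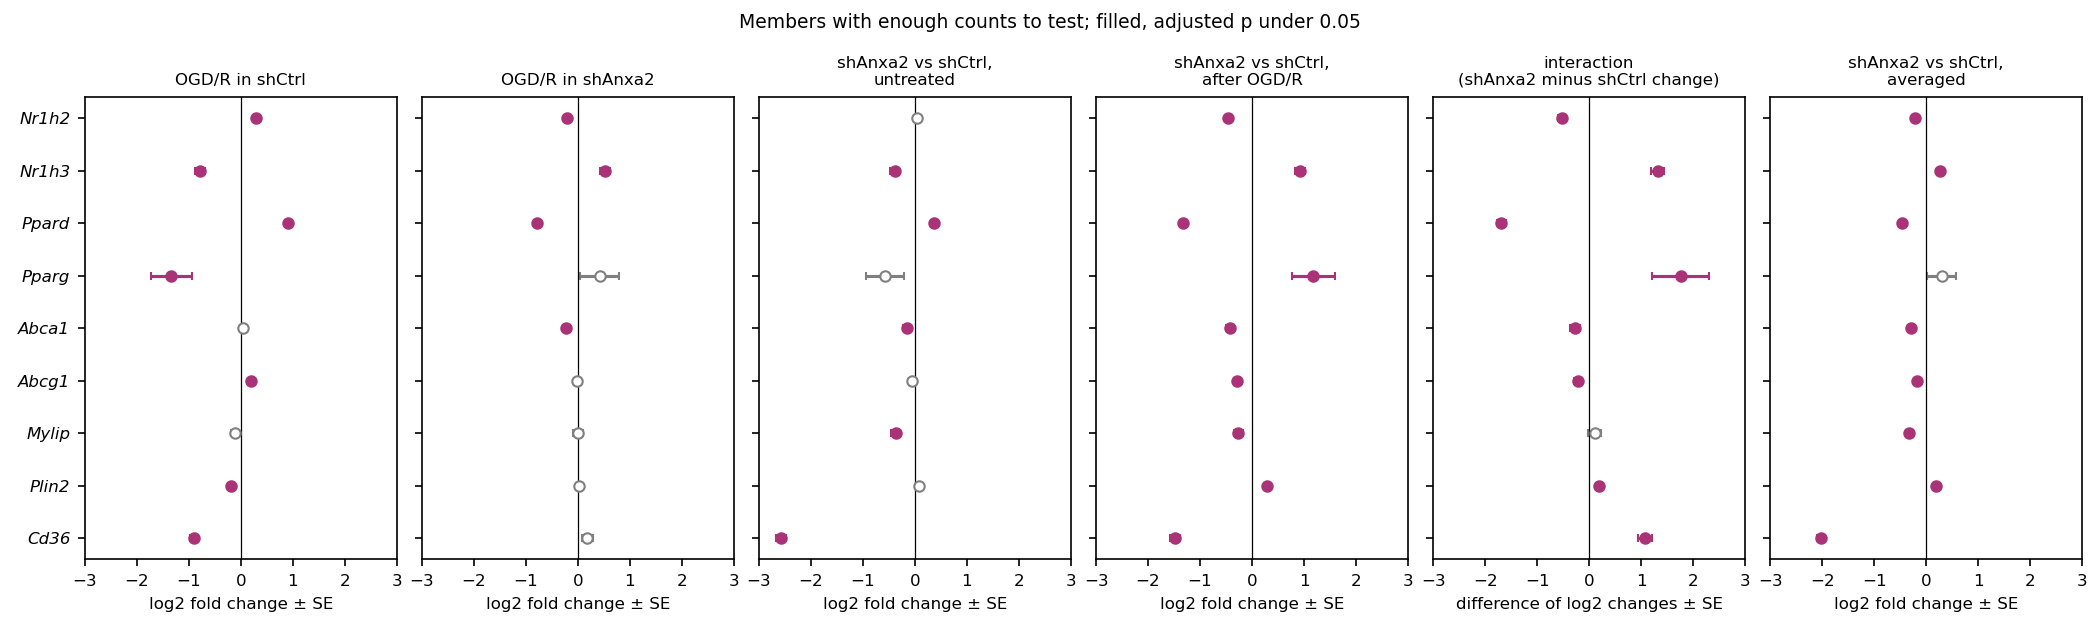
Log2 fold change (x axis) of the 9 tested genes (y axis) in each comparison, with the interaction as a difference of log2 changes. Points carry error bars of 1 SE and are filled where the adjusted p is under 0.05. Ppard changes sign between the panels for OGD/R in shCtrl (0.91) and in shAnxa2 (-0.78), and Cd36 lies at -2.57, -1.49 and -2.03 in the panels that compare the lines.

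Other genes of the pathways were taken from lists that leave out the 10 genes. Their counts of genes called higher and lower stand beside the shares of all genes, which were 32.4% and 31.0% for OGD/R in shCtrl, 28.2% and 26.8% for OGD/R in shAnxa2, 29.5% and 29.7% for shAnxa2 against shCtrl untreated, 33.8% and 34.2% for the same after OGD/R, and 27.9% and 25.1% averaged over treatments. Of 25 LXR targets and sterol efflux genes, 17 could be tested, and OGD/R in shCtrl raised 4 (23.5% of those tested) and lowered 7 (41.2%), with a median log2 fold change of -0.09. Apoe, the main lipid carrier made by glia, rose by 0.84 (SE 0.0706, edgeR adjusted p = 2.55e-10), and Abca7, a lipid transporter related to Abca1, rose by 0.70 (SE 0.0749, edgeR adjusted p = 1.56e-08). Fasn, the fatty acid synthase, had a log2 fold change of -0.87 (SE 0.0482, edgeR adjusted p = 1.54e-13), so the list did not move one way. Against shCtrl, 3 of these genes were higher and 7 lower in untreated shAnxa2, with a median of -0.22, and 4 were higher and 8 lower after OGD/R, with a median of 0.05. In the shAnxa2 line, 4 were higher and 6 lower in the libraries labelled OGDR. Averaged over treatments, 2 were higher and 6 lower.

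Of 30 PPAR targets, 19 could be tested, and OGD/R in shCtrl raised 10 (52.6% of those tested) and lowered 3 (15.8%), with a median of 0.21. The fatty acid binding proteins Fabp4 and Fabp5 rose by 1.22 (SE 0.0799, edgeR adjusted p = 3.11e-12) and 0.70 (SE 0.0662, edgeR adjusted p = 2.06e-09). Cpt1a, which admits fatty acids to mitochondria, was lower, at -0.76 (SE 0.0722, edgeR adjusted p = 2.03e-09). In untreated shAnxa2, 12 targets were higher and 4 lower than in shCtrl, with a median of 0.26. After OGD/R the direction was the other way, with 3 targets higher and 11 lower in shAnxa2 and a median of -0.12, with Cpt1a at 1.30 and Fabp4 at -1.54. In the shAnxa2 line, 2 were higher and 12 lower in the libraries labelled OGDR, and averaged over treatments 5 were higher and 7 lower in shAnxa2.

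Among 22 receptors, partners and coregulators, 19 could be tested, and OGD/R in shCtrl raised 6 (31.6% of those tested) and lowered 9 (47.4%). The retinoid X receptor genes Rxra and Rxrb, partners of both receptor families, rose by 0.42 (SE 0.0563, edgeR adjusted p = 5.37e-07) and 0.57 (SE 0.0613, edgeR adjusted p = 1.64e-08). The corepressor subunit gene Gps2 and the orphan receptor gene Nr0b2 had log2 fold changes of -0.44 and -0.59. In the shAnxa2 line, 8 were higher and 4 lower in the libraries labelled OGDR. Against shCtrl, 2 were higher and 14 lower in untreated shAnxa2 and 3 were higher and 10 lower after OGD/R, and averaged over treatments 1 was higher and 13 were lower, with a median of -0.18 beside 0.012 over all genes.

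Of 27 genes of lipid uptake, droplets and oxysterols, 19 could be tested, and OGD/R in shCtrl raised 8 (42.1% of those tested) and lowered 4 (21.1%). Plin3, a droplet coat protein related to Plin2, rose by 0.70 (SE 0.047, edgeR adjusted p = 5.47e-12), whereas Plin2 fell. In the shAnxa2 line, 6 were higher and 6 lower in the libraries labelled OGDR, and in untreated shAnxa2 6 were higher and 5 lower than in shCtrl. After OGD/R 3 genes were higher and 7 lower in shAnxa2, with Plin3 at -0.70. Averaged over treatments, 5 were higher and 7 lower.

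**Figure D5:**
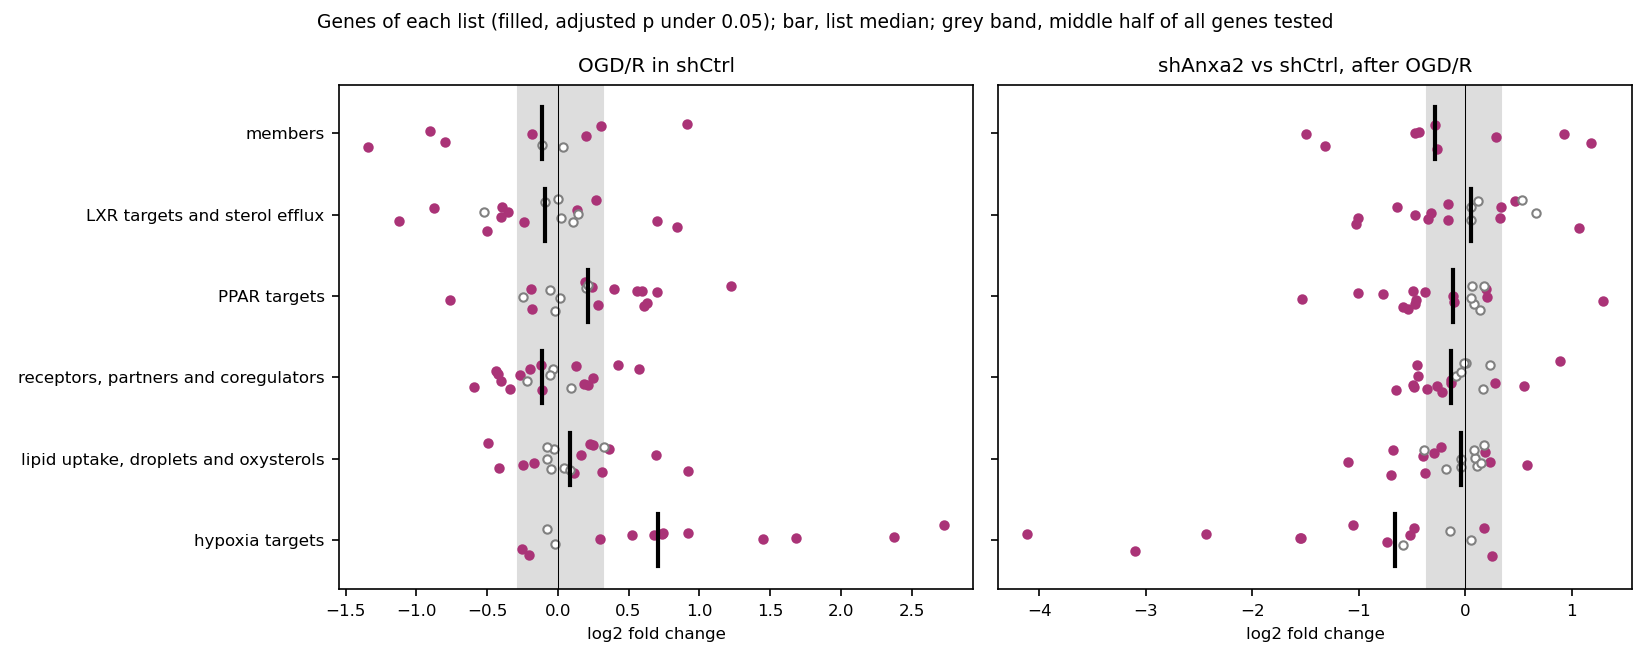
Log2 fold change (x axis) of single genes in each list (y axis), for OGD/R in shCtrl and for shAnxa2 against shCtrl after OGD/R. Points are genes, filled where the adjusted p is under 0.05, bars are list medians, and the grey band spans the middle 50% of all tested genes. The hypoxia targets have a median of 0.71 in the first panel and -0.66 in the second, and the lipid lists have medians between -0.13 and 0.21.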

How the data were processed

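Libraries were made from total RNA with the NEBNext Ultra kit, and the strand setting is not given in the sources used here. The authors deposited raw counts per gene for 12 libraries, and the submitters' processing notes name HISAT2 2.0.4 and the mouse build mm39. Another 12 columns of normalized values were not used. Groups came from the sample titles, since another label field gave the hairpin differently. Counts were tested with edgeR 4.0.16 (R 4.3.3): TMM scaling, 1 quasi-likelihood model over the 12 libraries, a floor of 0.5 CPM reached by 3 or more libraries (11626 of 21834 genes), and Benjamini-Hochberg adjustment, with calls at an adjusted p under 0.05, or also 1.5-fold. The common biological coefficient of variation was 5.36%. Levels per length used exon lengths of GENCODE M21. RMS distances used log2(CPM + 0.1). Alternatives were median-of-ratios scaling, DESeq2 1.42.0, voom with limma 3.58.1, other filters, the replicate number as a block, fits of the compared groups alone, and each library left out. The genes and lists were chosen with earlier results of these data known. Of each list but the hypoxia list, the text names from the 2 genes highest and 2 lowest among those called, at a mean of at least 1 CPM, in OGD/R in shCtrl and in shAnxa2 against shCtrl after OGD/R. P-values measure the spread between these libraries. Some list genes that this rule names are not reported here.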

Additional observations from a re-analysis of the deposited data

Results flagged for a closer look

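With the groups as labelled, these genes changed differently after OGD/R in the lines. The measure was the interaction term of the edgeR model (change in shAnxa2 minus change in shCtrl, log2). It uses the treatment labels of the shAnxa2 line, where most hypoxia targets were lower in the libraries labelled OGDR. Since 70.0% of all tested genes had a called interaction, the values are descriptions. The shRNA target Anxa2 had an interaction of -1.74 (SE 0.105).

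Among the receptor genes the interaction was -1.69 for Ppard, -0.52 for Nr1h2, 1.32 for Nr1h3 and 1.76 for Pparg. Among the lipid genes it was -0.27 for Abca1, -0.22 for Abcg1, 0.20 for Plin2 and 1.08 for Cd36.

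Of the LXR target list, Apoe had -1.10, Abca7 -1.08, Mertk -0.57, Fasn 1.55, Elovl5 0.81 and Tgm2 1.09. Of the PPAR target list, Fabp4 had -1.86, Fabp5 -1.34 and Cpt1a 1.61. Among partners and coregulators, Rxra had -0.51, Rxrb -0.87, Ncoa1 -0.51, Tbl1xr1 -0.36, Gps2 0.89 and Nr0b2 1.35. In the uptake and droplet list, Plin3 had -1.14, Angptl6 -1.25, Lrp8 0.37 and Msr1 1.03. All of these list genes passed the adjusted threshold, the highest adjusted p being 0.015 for Tgm2.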

How the results depend on the processing

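For the 9 genes tested, all 360 refits of the gene changes under the 7 settings other than leaving out a library kept their call. Of 648 refits with 1 library left out, 638 kept the call, 8 lost it and 2 gained it. In both sets, 0 called changes reversed direction. Changes that were not called could switch sign, as for Plin2 between the shAnxa2 groups, from -0.01 to 0.02 over the 7 settings. With 1 library left out, the count of genes called higher at 1.5-fold in shAnxa2 after OGD/R ranged from 1 to 2. Without the fold limit, the count higher in shAnxa2 after OGD/R ranged from 2 to 3 and the count lower from 5 to 6. Untreated, the count lower in shAnxa2 ranged from 3 to 4. The count of genes called higher in the shAnxa2 libraries labelled OGDR ranged from 1 to 2. Without a filter Angptl4 was also tested, and its call took the count of the 10 genes that OGD/R lowered in shCtrl from 4 to 5, and from 3 to 4 at 1.5-fold. In that fit 2 hypoxia targets were lower in untreated shAnxa2 against 1. With median-of-ratios scaling, 2 receptors, partners and coregulators were higher averaged over treatments against 1. Other list counts also moved over the scaling and filter settings. PPAR targets lower in shAnxa2 after OGD/R ranged from 9 to 11, and those lower in the shAnxa2 libraries labelled OGDR were 13 against 12. Lipid uptake, droplet and oxysterol genes lower averaged over treatments ranged from 7 to 9. The cause of these shifts in counts was not tested. With a pseudocount of 1 all mean distances were smaller, and that between shCtrl-CTRL and shAnxa2-OGDR was 0.31. The shAnxa2-OGDR libraries still lay nearest to shCtrl-CTRL, beside 0.383 to shAnxa2-CTRL and 0.539 to shCtrl-OGDR. Deviations from the group mean had correlations of -0.051 to 0.135 over 18 pairs of same-numbered libraries, with a median of 0.002. Over 36 pairs with other numbers they were -0.099 to 0.082, with a median of 0.0. Of 12 libraries, 6 correlated best with their own number. With 3 libraries per group, this cannot tell whether the numbers pair the samples. With the replicate block, 3754 genes were called higher and 3601 lower for OGD/R in shCtrl, against 3764 and 3608. Depth limits Pparg and Angptl4.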
